A study of Mus musculus with 8 samples.

Results

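Transcripts of the immunity-related GTPases (IRG) and of the very large inducible GTPase gene Gvin1 were followed by RNA-seq in mouse samples labelled as breast cancer cells. The family was taken by gene symbol and held 10 of the 23478 genes of the count table: Irgm1, Irgm2, Igtp, Tgtp1, Tgtp2, Ifi47, Iigp1, Gm4951, F830016B08Rik and Gvin1. There were 8 libraries in 4 groups, each with 2 samples that the labels call biological replicates. DCC IFN-gamma and DCC control are labelled as disseminated cancer cells (DCC) that had reached the bone marrow in mice whose breast cancer metastasised spontaneously, treated with interferon-gamma or left as control. Their epithelial markers went against that label, as the values given with the library facts show, and DCC is used here as the name of the label. TUBO is a mouse mammary carcinoma cell line. The early lesion group held primary cancer cells isolated from mammary tumours at an early stage, and its sample names carry neuT, in general the name of an activated rat Erbb2 oncogene. The genotype label of all 4 groups is WT, and TUBO and early lesion cells are labelled as control, like untreated DCC. The sources used here give no strain or age, no interferon-gamma dose and no treatment time, nor do they say whether DCC replicates came from different animals or had been grown in culture. The p-values therefore measure the spread between these samples. The design text sets disseminated cells beside primary and metastatic tumours and names the effect of CD4 Th1 immunity, whose main cytokine is interferon-gamma, as a second question.

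IRG proteins are interferon-inducible GTPases of cell-autonomous immunity in mice. Effector IRGs, whose nucleotide-binding loop carries a lysine (GKS type), assemble on the vacuole membrane around parasites such as Toxoplasma gondii and disrupt it. Regulatory IRGs, which carry a methionine there (GMS type), sit on the cell's own membranes and hold the effectors inactive, so that loss of a regulator lets effectors misfire. Interferon-gamma signals through its receptor and Jak kinases, and promoters of genes it induces often carry GAS elements or ISRE elements, which Irf factors bind.

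The class of a member can be read from its coding sequence. In the GENCODE M21 transcripts (GRCm38), the 24 coding bases of the nucleotide-binding loop are shown for 1 regulator and 2 effectors, with the codon that separates the classes in capitals (ATG codes for methionine, AAG for lysine). All 3 genes lie on chromosome 11. The window of Irgm1 was identical to those of Irgm2 and Igtp, and that of Tgtp1 to that of Tgtp2.
Irgm1: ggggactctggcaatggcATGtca
Tgtp1: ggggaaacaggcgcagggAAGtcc
Ifi47: gggcagtctgggactggcAAGtcc

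Promoter windows from RefSeq (GRCm38.p6, 250 bases before to 50 after the start site) were matched for 6 of the 10 members, namely Irgm1, Irgm2, Igtp, Tgtp1, Tgtp2 and Ifi47. Each was searched on both strands for GAS (TTCNNNGAA) and ISRE letters (GAAA, any 2 bases, GAAA), which could overlap. The windows of Irgm2 (chr11:58214727-58215026, plus), Igtp (chr11:58199306-58199605, plus), Tgtp1 (chr11:48992197-48992496, minus), Tgtp2 (chr11:49064163-49064462, minus) and Irgm1 (chr11:48871371-48871670, minus) are shown because they held matches, which are in capitals.
Irgm2: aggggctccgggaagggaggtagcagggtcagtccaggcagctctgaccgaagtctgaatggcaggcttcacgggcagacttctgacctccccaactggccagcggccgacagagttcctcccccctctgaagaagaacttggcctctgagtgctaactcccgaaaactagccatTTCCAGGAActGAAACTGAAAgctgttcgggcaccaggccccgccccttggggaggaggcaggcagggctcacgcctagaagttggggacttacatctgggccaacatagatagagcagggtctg
Igtp: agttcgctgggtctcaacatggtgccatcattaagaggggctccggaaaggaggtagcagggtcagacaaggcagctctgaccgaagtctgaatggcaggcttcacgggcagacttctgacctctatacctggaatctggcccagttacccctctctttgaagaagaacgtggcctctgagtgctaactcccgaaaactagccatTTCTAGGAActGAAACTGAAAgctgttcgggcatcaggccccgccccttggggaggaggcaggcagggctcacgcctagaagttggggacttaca
Tgtp1: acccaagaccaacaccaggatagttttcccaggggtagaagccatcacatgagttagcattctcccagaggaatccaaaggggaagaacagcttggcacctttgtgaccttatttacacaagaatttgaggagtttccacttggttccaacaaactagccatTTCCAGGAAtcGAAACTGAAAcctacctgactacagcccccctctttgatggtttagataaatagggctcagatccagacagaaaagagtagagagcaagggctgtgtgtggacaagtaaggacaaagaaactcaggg
Tgtp2: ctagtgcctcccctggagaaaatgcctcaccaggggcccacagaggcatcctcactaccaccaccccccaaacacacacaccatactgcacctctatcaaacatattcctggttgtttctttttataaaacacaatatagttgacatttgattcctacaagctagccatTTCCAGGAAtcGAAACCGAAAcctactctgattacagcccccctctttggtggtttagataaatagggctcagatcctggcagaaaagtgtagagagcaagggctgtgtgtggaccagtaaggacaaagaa
Irgm1: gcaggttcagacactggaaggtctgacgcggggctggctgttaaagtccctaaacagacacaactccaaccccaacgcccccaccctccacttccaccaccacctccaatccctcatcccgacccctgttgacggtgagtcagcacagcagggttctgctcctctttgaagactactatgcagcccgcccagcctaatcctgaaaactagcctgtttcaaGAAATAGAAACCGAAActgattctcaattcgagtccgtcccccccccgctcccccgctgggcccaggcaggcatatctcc

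In Irgm2, Igtp, Tgtp1 and Tgtp2 a GAS match was followed after 2 bases by an ISRE match. The GAS match began 75 bases before the start site in Irgm2, 45 in Igtp, 88 in Tgtp1 and 81 in Tgtp2. Irgm1 had no GAS match and 2 overlapping ISRE matches, which began 30 and 24 bases before the start site. Ifi47 had neither. Of the 32851 promoter windows outside chromosome 18, 8.3% held a GAS match, 3.44% an ISRE match and 0.454% both. Windows on chromosome 18 were not counted. The spaced pair, an arrangement described after the member windows had been read, was in 5 of the 32851 windows (0.0152%). The fifth belonged to Gm12185 (chr11:48927133-48927432, minus), another IRG-like gene of the chromosome 11 cluster, whose window does not overlap that of Tgtp1. These genes are related by sequence: the coding sequences of Tgtp1 and Tgtp2 were 99.68% identical and those of Irgm2 and Igtp 73.93%, so their windows are not independent. A match of letters is not a binding site, and the windows of the other 4 members were not analysed here.

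**Figure D1:**
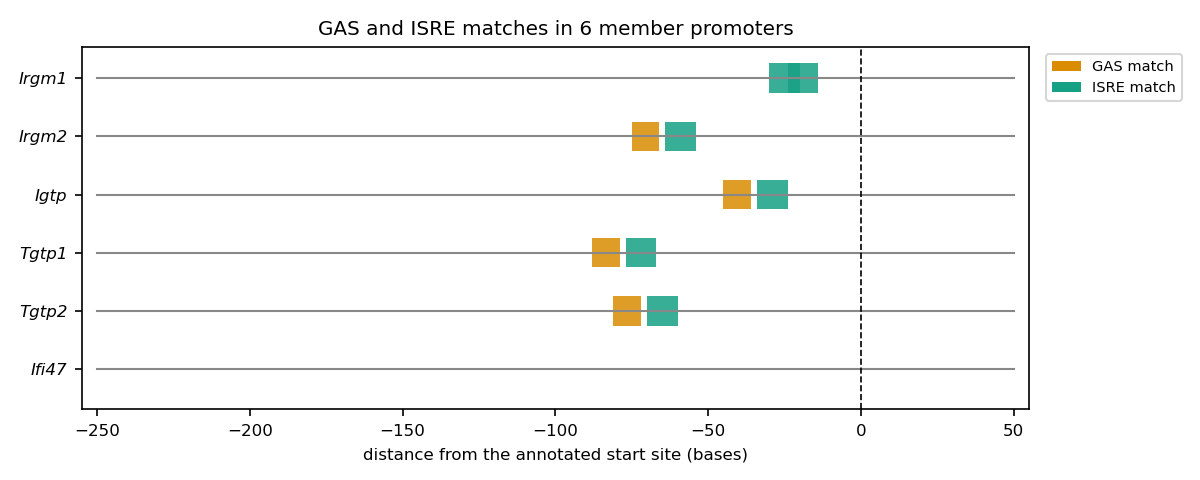
GAS (orange) and ISRE (green) matches in the promoter windows of 6 members, by distance in bases from the annotated start site (dashed line). The 4 windows of Irgm2, Igtp, Tgtp1 and Tgtp2 each hold a GAS match with an ISRE match 2 bases after it, Irgm1 holds 2 overlapping ISRE matches and Ifi47 none.

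By RefSeq's synonyms Igtp is also Irgm3, Tgtp1 is Irgb6, Ifi47 is Irgd, Iigp1 is Irga6, and Gm4951 and F830016B08Rik are Ifgga2 and Ifgga4. In GRCm38, Irgm1 (chr11:48861968-48871683, minus strand), Tgtp1 (chr11:48985327-48994172, minus), Tgtp2 (chr11:49057194-49064206, minus) and Ifi47 (chr11:49076587-49096974, plus) form a cluster. Igtp (chr11:58199556-58207591, plus) and Irgm2 (chr11:58199618-58222782, plus) overlap each other in a second cluster on chromosome 11. Gm4951 (chr18:60212080-60247820, plus), F830016B08Rik (chr18:60293380-60303016, plus) and Iigp1 (chr18:60376027-60392634, plus) neighbour each other on chromosome 18, and Gvin1 lies apart (chr7:106156556-106215326, minus). All 10 are annotated as protein coding.

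Library facts that bear on the values were as follows. Each library held 15432210 to 30168475 counts on genes, and 3 counts, taken as the floor of detection, stood for 0.0953 to 0.183 CPM (counts-per-million values after TMM scaling of library sizes). The lines of the table for reads assigned to no gene held 35.2% to 63.7% of all reads, with the highest shares in DCC control replicate 1 (63.7%) and in replicate 2 of the early lesion (57.2%). The first of these libraries also stood apart in another way: 2468 tested genes were lower in DCC IFN-gamma by more than 4 log2 units, 2095 of them were higher in that library than in DCC control replicate 2, and no family member was among them. The cell labels were checked against marker genes. Summed epithelial markers (14 genes) were at 0.367 and 0.459 CPM in DCC IFN-gamma and at 8.46 and 5.47 CPM in DCC control, against 6179 and 6645 CPM in TUBO and 3405 and 3230 CPM in early lesion cells. Epcam had 0 and 0 counts in DCC IFN-gamma and 0 and 4 in DCC control, against 29977 and 28565 in TUBO and 26310 and 17808 in early lesion cells. Of the 13 epithelial markers that were tested 7 were lower in DCC IFN-gamma than in DCC control and none higher. In that comparison 8.83% of all tested genes were lower and 12.6% higher. Grhl2, Elf3 and Cldn7 were at 0 in both DCC IFN-gamma libraries and at 1.46 ± 0.266, 0.897 ± 0.540 and 0.752 ± 0.0555 CPM in DCC control (SD, n = 2). They are among the 2468 genes named above. The median of those genes was 0 CPM in DCC IFN-gamma, and 0.852 and 0.238 CPM in DCC control replicates 1 and 2. Summed stromal and osteoblast markers (12 genes) were at 797.5 and 1291 CPM in DCC IFN-gamma and at 9615 and 11060 CPM in DCC control, against 146 and 131 CPM in TUBO and 49.2 and 43.4 CPM in early lesion cells. Of the 11 tested 7 were lower in DCC IFN-gamma than in DCC control, among them Ibsp, Postn and Alpl, and Pdgfra was higher. The libraries labelled DCC thus had sums of epithelial markers far below those of the mammary tumour libraries and sums of stromal and osteoblast markers above them. In such bulk samples a change in the number of cells of a type and a change of RNA per cell cannot be told apart.

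Interferon-gamma-treated DCC carried the IRG family at a level far above every other group. The summed family level was 6749 and 6231 CPM in the DCC IFN-gamma libraries, against 42.4 and 50.6 CPM in DCC control, 40.9 and 22.6 CPM in TUBO, and 55.2 and 52.2 CPM in early lesion cells. Family transcripts took 0.658% and 0.523% of the gene counts in treated DCC, and 0.00451% and 0.00513% in DCC control. The ratio of mean sums was 140 over DCC control, 204 over TUBO and 121 over early lesion cells. By the quasi-likelihood test of edgeR, with p-values adjusted after Benjamini and Hochberg over 17069 genes, 9 of the 10 members passed the filter on low counts, and these 9 were higher in DCC IFN-gamma than in DCC control at an adjusted p under 0.05, the threshold for a call. Of all tested genes 12.6% were called higher and 8.83% lower. Tgtp1 passed the filter only through the treated libraries and so had to differ, and Gvin1 did not pass. The median log2 fold change of the 9 was 7.91, against -0.20 over all tested genes. No library of another group overlapped the treated ones in any of the 9, and the share of all tested genes with such a gap was not computed.

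**Figure D2:**
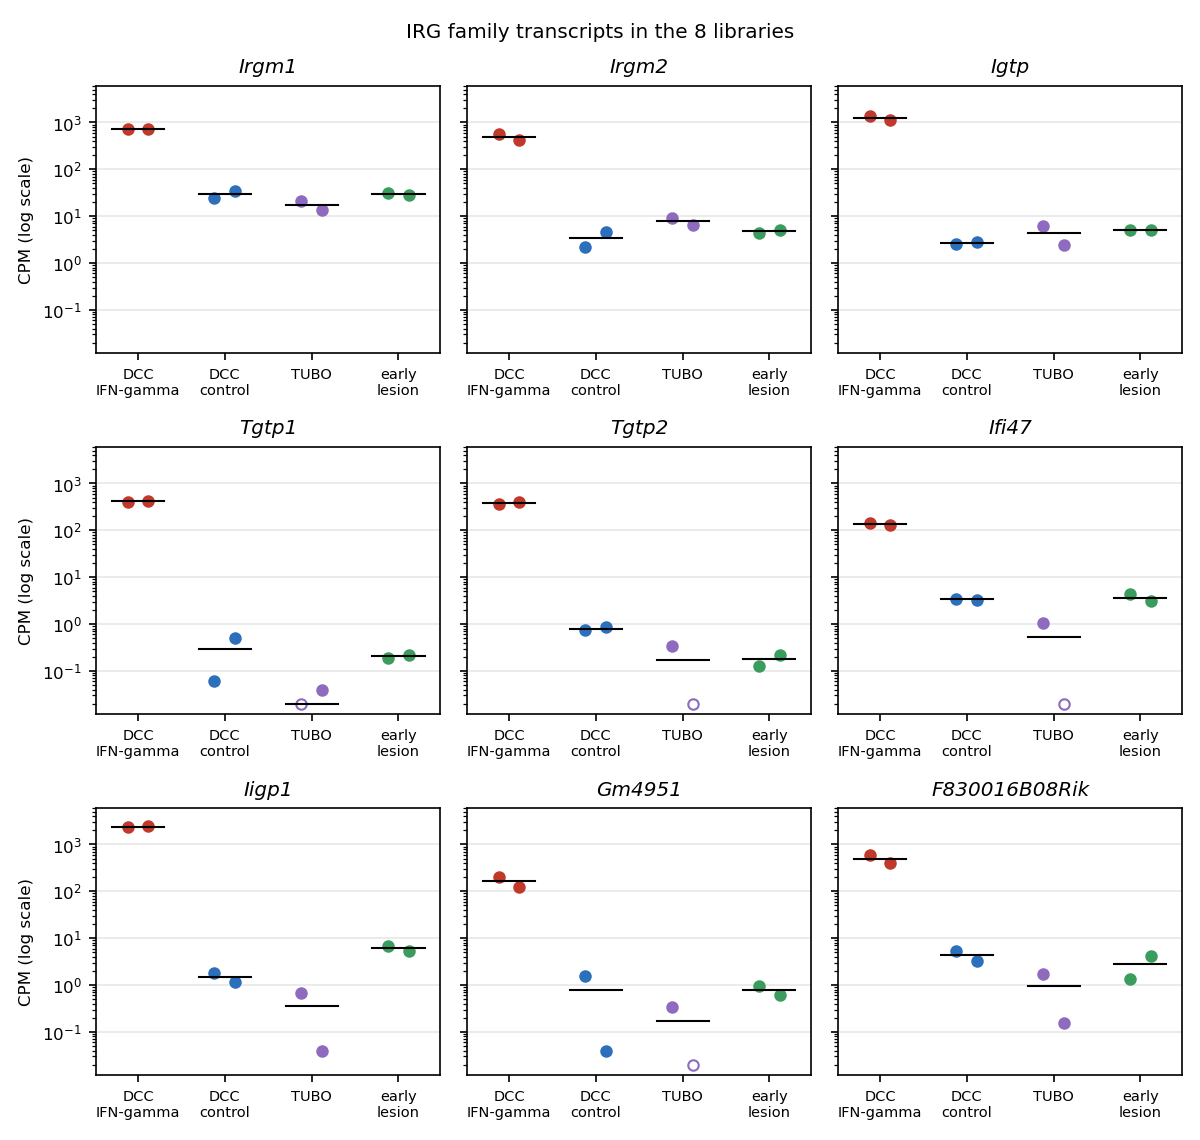
CPM (log scale) of the 9 detected members in each library (points) with the group mean (bar). An open point is a count of 0, drawn at 0.02 CPM. The DCC IFN-gamma libraries lie above all other libraries for each member.

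Among the regulators, Irgm1 had the highest level per transcript length of any member in each group without interferon-gamma. Irgm1, a regulator found on the Golgi and lysosomal membranes, had 739.7 and 725 CPM in DCC IFN-gamma, against 24.8 and 34.1 CPM in DCC control, 21.4 and 13.31 CPM in TUBO, and 31.97 and 28.5 CPM in early lesion cells. Treated DCC lay clear of every other library, while DCC control and early lesion libraries overlapped. The log2 fold change of Irgm1 in DCC IFN-gamma over DCC control was 4.63 ± 0.26 (SE, adjusted p = 2.76e-06 in edgeR).

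Irgm2, another Golgi-associated regulator, had 567.5 and 414 CPM in DCC IFN-gamma, against 2.19 and 4.52 CPM in DCC control, 9.18 and 6.60 CPM in TUBO, and 4.35 and 5.13 CPM in early lesion cells. It was the only member whose mean level after treated DCC was highest in TUBO. Its log2 fold change over DCC control was 7.15 ± 0.38 (adjusted p = 1.05e-05 in edgeR), and 7.81 without DCC control replicate 2.

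Igtp, a regulator of the endoplasmic reticulum and lipid droplets, had 1380 and 1151 CPM in DCC IFN-gamma, against 2.50 and 2.77 CPM in DCC control, 6.17 and 2.48 CPM in TUBO, and 5.02 and 4.996 CPM in early lesion cells. The treated libraries did not overlap any other, and TUBO spanned the values of the remaining groups. The log2 fold change over DCC control was 8.90 ± 0.45 (adjusted p = 1.07e-05 in edgeR). Igtp and Irgm2 share 12.3% and 5.84% of their 50-base stretches with each other, and reads in the overlap of these genes could not be assigned with certainty.

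Iigp1, the effector Irga6 that loads onto parasite vacuoles, had 2358 and 2464 CPM in DCC IFN-gamma, against 1.77 and 1.19 CPM in DCC control, 0.690 and 0.0381 CPM in TUBO, and 6.93 and 5.31 CPM in early lesion cells. None of the 4 groups overlapped another. Its log2 fold change over DCC control was 10.70 ± 0.61 (adjusted p = 3.68e-05 in edgeR), which was rank 9 of the 17069 tested genes, and its mean level in treated DCC was rank 24 of all genes.

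The near-identical effectors Tgtp1 and Tgtp2, known to mark vacuoles for destruction, shared 91.4% and 90.6% of their 50-base stretches with another gene, mostly with each other. Reads that align to several places are listed apart in the table (11.0% to 20.6% of all reads), so the counts of this pair rest on the few bases that tell them apart. Tgtp1 had 396.7 and 427.5 CPM in DCC IFN-gamma (10823 and 10248 counts), against 1 and 13 counts in DCC control, 0 and 1 counts in TUBO, and 6 and 5 counts in early lesion cells. Tgtp2 had 365 and 402 CPM in DCC IFN-gamma (9970 and 9629 counts), against 12 and 22 counts in DCC control, 10 and 0 counts in TUBO, and 4 and 5 counts in early lesion cells. Outside treated DCC both genes had 22 counts or fewer in every library, against a floor of 3. The log2 fold change over DCC control was 10.27 ± 0.42 for Tgtp1 (adjusted p = 1.09e-06 in edgeR) and 8.88 ± 0.48 for Tgtp2 (adjusted p = 1.77e-05). That of Tgtp1 was 12.62 without DCC control replicate 2, which held 13 of its 14 counts in that group, and 9.63 without replicate 1.

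Ifi47 is the GKS member Irgd. It was at 143 and 127 CPM in DCC IFN-gamma, against 3.47 and 3.29 CPM in DCC control, 1.07 and 0 CPM in TUBO, and 4.32 and 3.03 CPM in early lesion cells. The log2 fold change over DCC control was 5.32 ± 0.73 (adjusted p = 0.00377 in edgeR). It missed the threshold when 1 library was left out, at an adjusted p of 0.0587 for DCC IFN-gamma replicate 1, 0.0531 for DCC control replicate 1 and 0.116 for DCC control replicate 2, while the log2 fold change stayed between 5.23 and 5.45 with any 1 library left out.

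Gm4951 and F830016B08Rik lie beside Iigp1, and the coding sequence of Gm4951 was 87.98% identical to that of Iigp1. Gm4951 had 199.8 and 124 CPM in DCC IFN-gamma, against 1.52 and 0.0396 CPM in DCC control, 0.345 and 0 CPM in TUBO, and 0.954 and 0.624 CPM in early lesion cells. The DCC control replicates differed widely, at 25 counts and 1 count. Its log2 fold change was 7.91 ± 1.02 (adjusted p = 0.00279 in edgeR), which missed the threshold when DCC IFN-gamma replicate 1 was left out (adjusted p = 0.0573). Leaving out DCC control replicate 1 gave a log2 fold change of 11.84, and leaving out replicate 2 gave 6.73.

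F830016B08Rik had 599 and 396 CPM in DCC IFN-gamma, against 5.36 and 3.33 CPM in DCC control, 1.73 and 0.153 CPM in TUBO, and 1.34 and 4.24 CPM in early lesion cells. Treated DCC lay apart, and the DCC control and early lesion libraries overlapped. The log2 fold change over DCC control was 6.86 ± 0.86 (adjusted p = 0.00249 in edgeR), which missed the threshold when DCC control replicate 2 was left out (adjusted p = 0.109).

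Gvin1 was listed at 0 counts in all 8 libraries. Of its 50-base stretches 99.2% also occur in another gene, and 98.3% in Gm4070, which was at 0 in every library too. These zeros bear on reads that place uniquely. Gm1966 and Gm8979, annotated as unprocessed pseudogenes of the same chromosome 7 cluster, were not at 0. Other genes hold 17.5% of the 50-base stretches of Gm1966 and 85.8% of those of Gm8979. Gm1966 averaged 601.5 ± 93.6 CPM in DCC IFN-gamma and 9.79 ± 0.936 CPM in DCC control (SD, n = 2 each), a log2 difference of 5.94 ± 0.82 (adjusted p = 0.0066 in edgeR). Gm8979 averaged 80.4 ± 1.52 CPM in DCC IFN-gamma and 1.97 ± 0.828 CPM in DCC control, with a log2 fold change of 5.38 ± 0.60 (adjusted p = 0.00158).

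**Figure D3:**
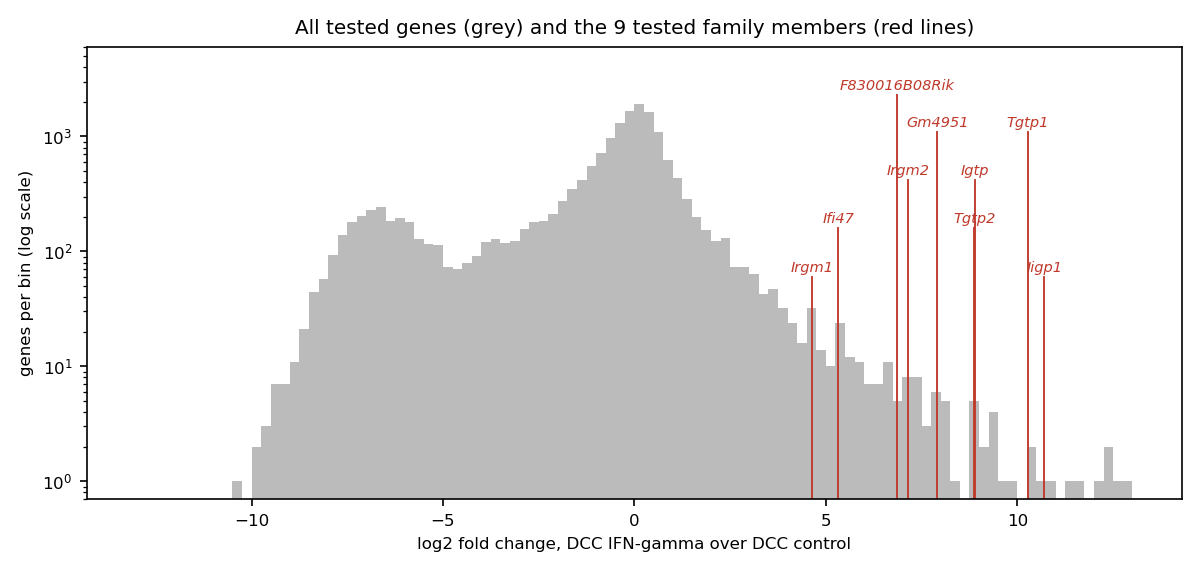
Log2 fold changes of DCC IFN-gamma over DCC control for all 17069 tested genes (grey, genes per bin of 0.25 on a log scale) and for the 9 tested members (red lines). The members lie between 4.63 (Irgm1) and 10.70 (Iigp1). The grey hump near -7 holds genes at a median of 0 CPM in DCC IFN-gamma, against 0.852 and 0.238 CPM in DCC control replicates 1 and 2 (genes below -4).

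The same 9 members were higher in DCC IFN-gamma than in TUBO and than in early lesion cells, comparisons that share the treated libraries with the one above. Tgtp1, which passed the filter only through the treated libraries, had to differ here too. Over TUBO 24.4% of all tested genes were higher and 19.6% lower, and the members' log2 fold changes had a median of 9.01, against 0.00 over all tested genes. Over early lesion cells 22.7% were higher and 19.2% lower, and the members' median was 7.64, against -0.18. Irgm1 had the smallest difference among the 9 in both, at 5.40 ± 0.27 over TUBO (adjusted p = 1.57e-07 in edgeR) and 4.60 ± 0.26 over early lesion cells (adjusted p = 4.11e-07). Iigp1 differed by 12.62 ± 0.67 over TUBO (adjusted p = 4.55e-06) and by 8.62 ± 0.54 over early lesion cells (adjusted p = 1.23e-05). The largest difference over early lesion cells was that of Tgtp2 at 11.12 ± 0.55 (adjusted p = 1.97e-06). With 1 count of Tgtp1 in all of TUBO, its ratio of DCC IFN-gamma over TUBO was 22700 with a 95% counting interval of 4070 to 897000. TUBO replicate 2 held 0 counts of Tgtp2, Ifi47 and Gm4951 and few of the other non-regulators, and without TUBO replicate 1 the log2 fold changes over TUBO were 16.22 for Tgtp2, 14.71 for Ifi47, 14.98 for Gm4951, 15.84 for Iigp1, 11.70 for F830016B08Rik and 9.07 for Igtp, values that depend on the prior count where TUBO is at 0. Without TUBO replicate 2 they were 10.10, 6.97, 8.86, 11.76, 8.17 and 7.68 in the same order of genes. F830016B08Rik over early lesion cells was at 6.88 without the first early lesion replicate and 8.54 without the second.

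The make-up of the family differed between treated DCC and the other groups. On the scale of CPM per kilobase of transcript (RPKM), Iigp1 led in DCC IFN-gamma at 772.5 ± 24, followed by Igtp at 625.9 ± 79.8 and Irgm1 at 324 ± 4.48 (SD, n = 2). In DCC control Irgm1 led at 13.0 ± 2.92 RPKM, followed by Ifi47 at 1.91 ± 0.0728. Irgm1 made up 13.33% ± 0.611 of the summed family RPKM in DCC IFN-gamma, against 65.8% ± 6.12 in DCC control, 60.6% ± 5.92 in TUBO and 59.3% ± 1.55 in early lesion cells. The library values of DCC IFN-gamma did not overlap those of any other group. Iigp1 made up 31.8% ± 2.88 in DCC IFN-gamma, against 2.47% ± 0.991 in DCC control, 0.727% ± 0.838 in TUBO and 8.67% ± 1.14 in early lesion cells. The 3 regulators together held 46.2% and 43.3% of the family level in DCC IFN-gamma, against 71.9% and 82.6% in DCC control, 90.5% and 99.2% in TUBO, and 76.4% and 76.5% in early lesion cells. With 2 libraries per group the smallest p of an exact two-sided permutation test is 0.333, so no test of these shares is given. Reads that Tgtp1 and Tgtp2 share are not in their shares.

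**Figure D4:**
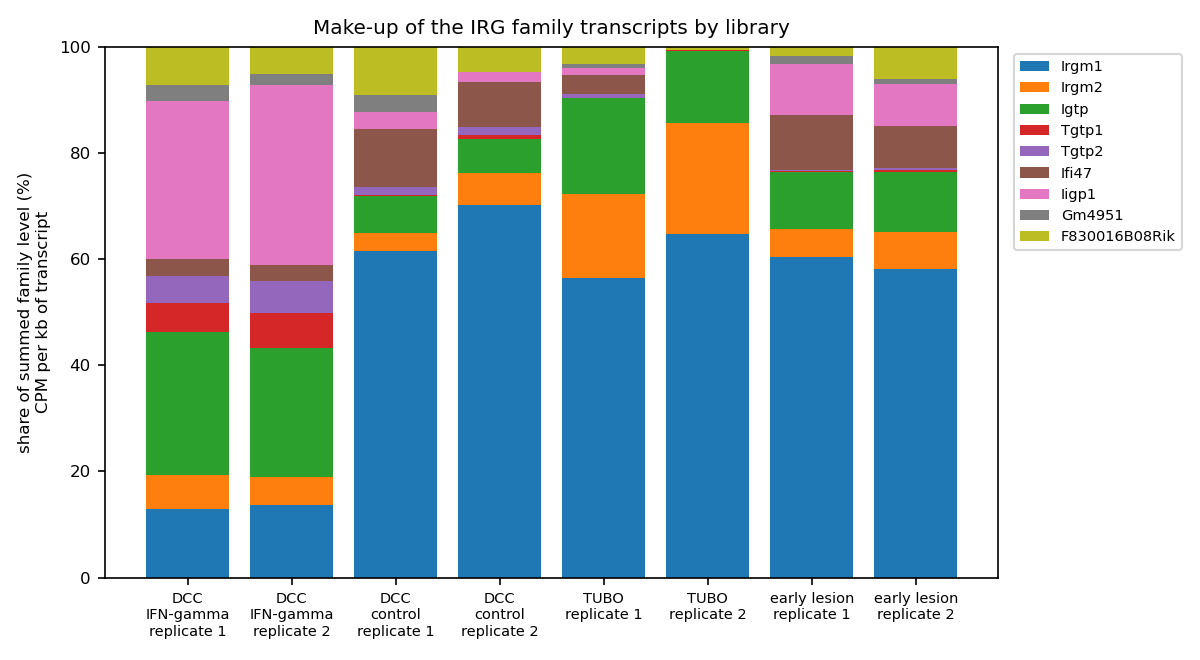
Share of each member in the summed family level (CPM per kilobase of transcript, %) in the 8 libraries. Irgm1 (blue, bottom) holds 13.33% on average in DCC IFN-gamma, against 65.8% in DCC control, 60.6% in TUBO and 59.3% in early lesion cells, and Iigp1 (pink) holds 31.8% in DCC IFN-gamma.

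The groups without interferon-gamma were then compared with each other. Of the 9 tested members 1 was higher and 1 lower in DCC control than in early lesion cells, where 19.1% of all tested genes were higher and 18.7% lower. Iigp1 was lower in DCC control, with 1.77 and 1.19 CPM against 6.93 and 5.31 CPM in early lesion cells (log2 fold change -2.09 ± 0.51, adjusted p = 0.0143 in edgeR). Tgtp2 was higher, with 12 and 22 counts in DCC control against 4 and 5 counts in early lesion cells (2.24 ± 0.74, adjusted p = 0.0466). With Tgtp1 and Tgtp2 summed to 1 gene, the pair was still higher in DCC control (1.59, adjusted p = 0.0368). The Iigp1 call was lost without either DCC IFN-gamma library, either DCC control library or the first early lesion replicate (adjusted p = 0.0531 to 0.179), and the Tgtp2 call without any 1 of the DCC or early lesion libraries (0.0854 to 0.278). Igtp did not overlap between these groups either but was not called (-0.92 ± 0.38, adjusted p = 0.101). The members' median log2 fold change was -0.14, against 0.23 over all tested genes.

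DCC control against TUBO gave 3 members higher and 1 lower, where 22.1% of all tested genes were higher and 19.9% lower. Irgm1 was higher in DCC control, at 29.4 ± 6.59 CPM against 17.3 ± 5.68 CPM in TUBO (SD, n = 2 each), a log2 difference of 0.77 ± 0.23 (adjusted p = 0.0223 in edgeR). Irgm2 was lower, at 3.35 ± 1.64 CPM in DCC control and 7.89 ± 1.82 CPM in TUBO (-1.20 ± 0.33, adjusted p = 0.019). Tgtp1 had 14 counts in DCC control and 1 in TUBO, a ratio of 18.5 with a 95% counting interval of 2.82 to 784 (adjusted p = 0.0176), and Tgtp2 had 34 and 10 counts (2.14 ± 0.72, adjusted p = 0.0463). Ifi47 (2.60 ± 0.85, adjusted p = 0.0506) and Iigp1 (1.92 ± 0.70, adjusted p = 0.0623) missed the threshold. Irgm1 and Irgm2, both regulators, differed in opposite directions between these groups. The calls of Irgm1, Irgm2, Tgtp1 and Tgtp2 were each lost with some single libraries left out, at adjusted p of 0.0555 to 0.184 for Irgm1, 0.065 to 0.134 for Irgm2, 0.0891 to 0.524 for Tgtp1 and 0.0566 to 0.25 for Tgtp2. The libraries were DCC IFN-gamma 2, DCC control 2 and TUBO 2 for Irgm1, DCC control 1 and TUBO 1 for Irgm2, DCC control 2 and TUBO 1 for Tgtp1, and each DCC and early lesion library for Tgtp2. Without TUBO replicate 1 the log2 fold change of Tgtp2 was 7.33, against 0 counts in TUBO, and without TUBO replicate 2 it was 1.22. Irgm2 was at -1.85 without DCC control replicate 2, and the fitted value of Tgtp1 ran between 1.51 without DCC control replicate 2 and 6.06 without TUBO replicate 2. The members' median log2 fold change was 1.92, against 0.37 over all tested genes.

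TUBO against early lesion cells gave no member higher and 2 lower, where 11.4% of all tested genes were higher and 12.7% lower. Iigp1 was at 0.690 and 0.0381 CPM in TUBO and at 6.93 and 5.31 CPM in early lesion cells, a log2 difference of -4.01 ± 0.59 (adjusted p = 0.00267 in edgeR). That call held with any 1 library left out, at -7.25 without TUBO replicate 1 and -3.14 without TUBO replicate 2. Irgm1 was at 17.3 ± 5.68 CPM in TUBO and at 30.2 ± 2.49 CPM in early lesion cells (-0.80 ± 0.23, adjusted p = 0.0297), a call lost without either early lesion library (adjusted p = 0.122 and 0.0702) or TUBO replicate 2 (0.232). The order of Iigp1 levels was thus treated DCC, early lesion, DCC control and TUBO, and DCC control and TUBO were the only neighbours whose difference missed the threshold. For Igtp, Ifi47, Gm4951 and F830016B08Rik no difference among the 3 untreated groups passed. The members' median log2 fold change was -1.48, against -0.27 over all tested genes.

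**Figure D5:**
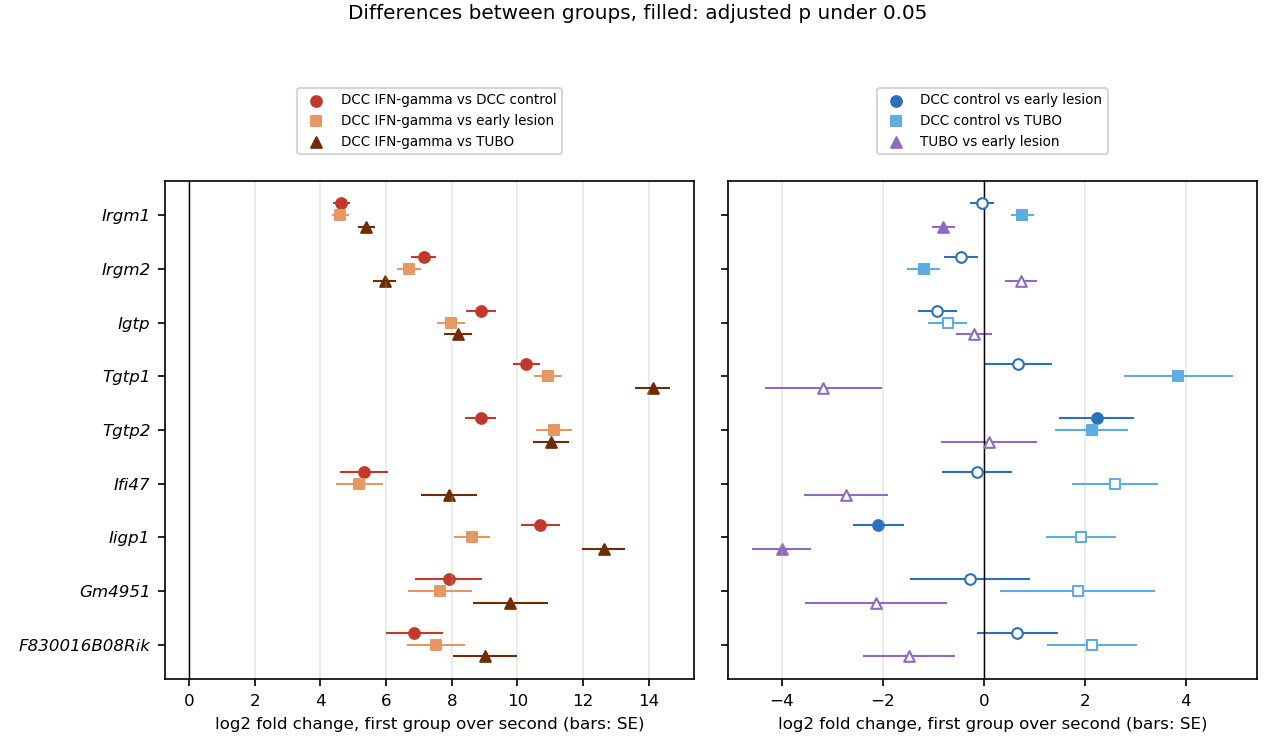
Log2 fold changes (x axis, bars are SE) of the 9 tested members, with the first-named group over the second, for comparisons with DCC IFN-gamma (left) and without it (right). Filled symbols passed an adjusted p of 0.05: all 27 on the left, and 8 on the right. Those of Tgtp1 on the left had to differ, as it passed the filter only through the treated libraries. The values of Tgtp1 against TUBO rest on 1 count in TUBO. For Tgtp1 DCC IFN-gamma over TUBO was 14.12, and 13.29 and 16.34 without TUBO replicates 1 and 2, both outside its SE bar.

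Other IRG and Gvin loci were followed through a list of 11 genes, of which 8 were tested in DCC IFN-gamma against DCC control. Of these 5 were higher, none lower and 3 not called, where 12.6% of all tested genes were higher and 8.83% lower. Gm12250, the effector Irgb10 by RefSeq's synonyms though annotated as a processed pseudogene in GENCODE, averaged 230.6 ± 80.8 CPM in DCC IFN-gamma and 0.213 ± 0.301 CPM in DCC control (log2 fold change 10.35 ± 0.76, adjusted p = 0.000574 in edgeR). Gm12185 averaged 85.7 ± 27.5 CPM in DCC IFN-gamma and 2.69 ± 2.91 CPM in DCC control (5.07 ± 1.12, adjusted p = 0.0231). The remaining called genes were Gm1966, Gm8979 and 9930111J21Rik1 (4.35 ± 0.69, adjusted p = 0.00655 in edgeR). Other genes hold 79.8% of the 50-base stretches of 9930111J21Rik1. Gm12185 and 9930111J21Rik1 were named after their values were seen, and 9930111J21Rik1 was not called with both of the libraries named above for reads outside genes left out (adjusted p = 0.0842), which left 4 of the 8 higher.

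The guanylate-binding proteins, which act with IRGs on vacuoles, were higher too. All 11 genes of the GBP list were higher in DCC IFN-gamma than in DCC control, where 12.6% of all tested genes were higher. The median log2 fold change of the 11 was 7.25. Gbp3 had the largest at 8.84 ± 0.25 (adjusted p = 9.43e-08 in edgeR), Gbp2b had 8.12 ± 0.35 (adjusted p = 7.66e-07) and Gbp5 had 7.87 ± 0.84 (adjusted p = 0.00131). Their summed level was 8879 and 11070 CPM in DCC IFN-gamma, against 107 and 102 CPM in DCC control, a ratio of means of 95.6. With those libraries left out all 11 were again higher.

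Of 15 genes of interferon-gamma signalling 11 were higher, none lower and 4 not called, where 12.6% of all tested genes were higher and 8.83% lower. The median log2 fold change of the 15 was 2.47. Irf1, an interferon-induced transcription factor, changed by 6.09 ± 0.25 (adjusted p = 7.66e-07 in edgeR), Irf8 by 5.44 ± 0.26 (adjusted p = 1.09e-06) and Stat2 by 5.28 ± 0.36 (adjusted p = 4.53e-05). The receptor chains had small differences, with 0.72 ± 0.18 for Ifngr2 (adjusted p = 0.0156) and 0.30 ± 0.21 for Ifngr1, which was not called (adjusted p = 0.327). Ifng itself had 0 and 0 counts in DCC IFN-gamma, 2 and 2 in DCC control, 0 and 0 in TUBO, and 0 and 3 in early lesion cells. Ifnb1, a type I interferon, had 413 and 77 counts in DCC IFN-gamma and 3 and 5 counts in DCC control (5.55 ± 1.20, adjusted p = 0.0103). With the same libraries left out, 8 of the 15 were higher, Ifngr2 was not called (adjusted p = 0.203) and Ifnb1 was not called (adjusted p = 0.0661).

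Genes that mark or target vacuoles and the autophagy factors that IRG proteins depend on had smaller differences. Of the 18 tested 6 were higher, 1 lower and 11 not called, where 12.6% of all tested genes were higher and 8.83% lower. The median log2 fold change of the 18 was 0.29. Trim21, an E3 ubiquitin ligase, was at 94.1 ± 42.3 CPM in DCC IFN-gamma and 2.49 ± 0.610 CPM in DCC control (5.26 ± 0.45, adjusted p = 0.000114 in edgeR). Sqstm1, the adaptor p62 that binds ubiquitin, was at 696.9 ± 49.3 CPM in DCC IFN-gamma and 226.9 ± 32 CPM in DCC control (1.62 ± 0.17, adjusted p = 0.000123). Atg7, an enzyme of the conjugation of LC3, changed by 0.74 ± 0.22 (adjusted p = 0.0349), and Calcoco1, an autophagy receptor, by -0.87 ± 0.25 (adjusted p = 0.0339). With the same libraries left out, the remaining calls were those of Trim21 (adjusted p = 0.00341) and Sqstm1 (0.0119).

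Markers of leukocytes differed between the same groups. Of 16 macrophage and monocyte markers 12 were higher in DCC IFN-gamma than in DCC control, none lower, and 4 not called. In that comparison 12.6% of all tested genes were higher and 8.83% lower. Their summed level was 2221 and 1615 CPM in DCC IFN-gamma, against 154 and 154.5 CPM in DCC control, 77.9 and 110.5 CPM in TUBO, and 100 and 109 CPM in early lesion cells. Cd14, named after its values were seen, was at 43.1 and 65.7 CPM in DCC IFN-gamma and 12.3 and 11.3 CPM in DCC control, and at 73.9 and 106.6 CPM in TUBO and 94.1 and 98.1 CPM in early lesion cells, where it made up most of the sum. All 16 had a count in each DCC library, and Aif1, Mpeg1 and Fcgr1 had the largest log2 fold changes (6.30, 4.73 and 4.68). With the same libraries left out, the count was again 12. Of 9 pan-leukocyte markers 5 were higher, none lower and 4 not called, with sums of 682.5 and 595 CPM in DCC IFN-gamma and 79.1 and 69.2 CPM in DCC control, and 8 were higher without those libraries. The pan-leukocyte sums were 385 and 299 CPM in TUBO, and 903.5 and 819 CPM in early lesion cells. Lcp1, named after its values were seen, was alone at 384 and 298 CPM in TUBO, and 902 and 813 CPM in early lesion cells. Cd52 (5.98 ± 0.65, adjusted p = 0.000755 in edgeR), Srgn (3.70 ± 0.24, adjusted p = 1.36e-05) and Laptm5 (3.40 ± 0.42, adjusted p = 0.0024) had the largest log2 fold changes among the 5 called in DCC IFN-gamma over DCC control. The ratio of mean sums was 12.5 for the macrophage and 8.61 for the pan-leukocyte markers. T and NK cell markers summed to 0 and 0.0417 CPM in DCC IFN-gamma and to 4.20 and 1.23 CPM in DCC control, B cell markers to 1.87 and 0.334 CPM in DCC IFN-gamma and 1.64 and 1.19 CPM in DCC control, and endothelial markers to 2.38 and 1.25 CPM in DCC IFN-gamma and 8.77 and 1.51 CPM in DCC control. None of the 2 T and NK cell, 1 B cell and 6 endothelial markers tested was called. Macrophages also express IRG genes in response to interferon-gamma, and the part of these cells in the family's levels was not tested.

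The profiles of single members over the 8 libraries were alike. Pearson correlations of log2 CPM with the mean profile of the 9 members, which includes the member itself, were 0.936 for Ifi47 to 0.997 for Irgm1. Among 10544 tested genes outside the family with at least 10 CPM in a group, the genes most like the mean profile were Abl2 (0.992), a tyrosine kinase, the chemokine gene Cxcl10 (0.991), Slfn2 (0.990), Enc1 (0.990) and Sp110 (0.989). Cxcl10 averaged 1778 CPM in DCC IFN-gamma, against 0.486 CPM in DCC control, 0.0862 CPM in TUBO and 0.395 CPM in early lesion cells. Abl2 averaged 413 CPM in DCC IFN-gamma, against 66.0 CPM in DCC control, 63.9 CPM in TUBO and 81.1 CPM in early lesion cells. The 8 points fall into treated DCC and the rest, so these correlations describe that gap and the flat levels elsewhere.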

How the data were processed

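The deposited table gave raw counts of reads per gene for 8 libraries, which the authors made with TopHat, HTSeq 0.6.1 and mm10, per the submitters' processing notes. Per the labels' protocols, RNeasy Mini columns gave the RNA and a Nugen Ovation kit for mouse RNA-seq the libraries. Which annotation and strand setting the counting used is not given in the sources used here. That table has 23478 genes, and 5 closing lines for reads on no single gene, which were left out of library sizes.

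Counts were tested with edgeR 4.0.16 (R 4.3.3, limma 3.58.1) by the robust quasi-likelihood test, with TMM factors, filterByExpr (minimum count 10) and 1 model of 4 group means over the 8 libraries (4 residual degrees of freedom, common biological coefficient of variation 0.416). Benjamini-Hochberg adjustment ran over the 17069 genes tested, with a threshold of 0.05, in each of 6 comparisons, which share libraries. CPM were computed per TMM-scaled library, and RPKM per kilobase of the GENCODE M21 transcript. The SE of a log2 fold change was derived as its absolute value over the square root of the quasi-likelihood F statistic. The scripts were tested on simulated data. Counting intervals are exact at 95% and, like the floor of 3 counts, cover counting error only. Levels, sequences and plots used Python 3.11.15 with numpy 2.4.6, pandas 2.3.3, scipy 1.17.1, matplotlib 3.10.9 and biopython 1.88.

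No pair of replicates agreed within sampling noise (17.4 to 160.5 chi-square units per degree of freedom). The value was 160.5 in DCC IFN-gamma, 33.5 in TUBO, 18.5 in early lesion and 17.4 in DCC control. It grows with the number of counts and was taken over different genes in each pair (13874 in DCC IFN-gamma, 17645 in DCC control). The pairs are therefore not ranked by it. Members and gene lists were chosen with earlier results of these data known. All 10 members are named in the text, with the 5 genes most like their mean profile (log2 CPM with a prior count of 2, tested genes of at least 10 CPM in a group, without predicted and clone names), and for each other list the up to 3 called genes with the largest change and 1 in the other direction, plus Irf1, Ifngr1, Ifngr2 and Ifng. A further gene of this rule is not reported here. Of 132 entries in the 12 other lists, 1 was matched by an older symbol and 1 was not in the table. Alternatives were RLE and upper quartile factors, other filters, a replicate block, fits of only the 2 groups compared, DESeq2 1.42.0, each library left out, joint removal of early lesion replicate 2 and DCC control replicate 1, and Tgtp1 and Tgtp2 summed.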

Additional observations from a re-analysis of the deposited data

How the results depend on the processing

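The higher level of the 9 tested members in DCC IFN-gamma kept its direction in every alternative run. The calls over TUBO and early lesion cells held in 153 of 153 cases each, where a case is 1 member in 1 of 17 alternative fits. Over DCC control 147 of 153 held, 7 to 9 members were called with 1 library left out, and 8 with early lesion replicate 2 and DCC control replicate 1 both left out, where Ifi47 missed the threshold (adjusted p = 0.0565). The comparisons without treated DCC depended on the processing. DCC control against early lesion called 2 members, 4 with no filter, 1 with only the 2 groups compared and 0 to 3 with 1 library left out. DCC control against TUBO called 4 members, 9 with no filter, 1 with only the 2 groups compared and 1 to 5 with 1 library left out. TUBO against early lesion called 2 members, 7 with no filter and 1 to 5 with 1 library left out. Over all genes, 3656 were called for DCC IFN-gamma against DCC control (2020 to 4128 with 1 library left out), and 4117 for TUBO against early lesion (2391 to 5175). With early lesion replicate 2 and DCC control replicate 1 both left out, the members called were 0 for DCC control against early lesion, 2 for DCC control against TUBO and 1 for TUBO against early lesion. The genes called were then 1654 for DCC IFN-gamma against DCC control, 4112 for DCC control against early lesion (6441 with all libraries) and 1944 for TUBO against early lesion. The calls of the other gene lists without these libraries were counted in an alternative chosen after seeing the data: of the vacuole and autophagy genes 2 were called, against 7 with all libraries, of the interferon ligands 0 against 1, and of the pan-leukocyte markers 8 against 5. The cause was not tested.

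The differences whose direction turned had all missed the threshold with all libraries. For DCC control over early lesion the log2 fold change of Irgm1 was 0.0296 with upper quartile factors, -0.29 to 0.17 with 1 library left out and 0.0936 without the 2 libraries together. That of Irgm2 was 0.0529 without both. Gm4951 was at 0.0234 with DESeq2 and at -4.19 to 0.91 with 1 library left out, Tgtp1 at -1.67 to 1.31 and Ifi47 at -0.36 to 0.15. For DCC control over TUBO, Gm4951 was at -2.06 to 7.05 with 1 library left out and -2.06 without both, and Igtp at -1.22 to 0.15. For TUBO over early lesion, Tgtp2 was at -5.13 to 1.02, with a call at -5.13 (adjusted p = 0.0389 without TUBO replicate 1), and -0.90 when summed with Tgtp1, and Igtp at -1.11 to 0.30.

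Differences of replicate 1 minus replicate 2 correlated over genes at -0.43 to 0.10 between groups. The -0.43 was between DCC control and early lesion, where DCC control replicate 1 went with early lesion replicate 2. With 1 difference per group, these values cannot show whether same-numbered libraries shared an animal, day or batch. With the replicate block, 9 members were called for DCC IFN-gamma against DCC control, 1 for DCC control against early lesion, 3 for DCC control against TUBO and 2 for TUBO against early lesion. In the libraries without interferon-gamma Tgtp1 had 0 to 13 counts, Tgtp2 0 to 22 and Gm4951 0 to 30, against a floor of 3, which limits how firmly their differences there can be read.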
